A study of Rattus norvegicus with 10 samples.

Results

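The transcripts of 5 channel genes of the choroid plexus, AQP1, CLIC6, KCNE2, KCNJ13 and TRPV4, were followed in 10 female Wistar rats aged 27 weeks. The genes were chosen by symbol, and all 5 were tied to an Ensembl identifier through the gene table of the study, out of 32883 genes listed for each rat. The choroid plexus of the lateral and the 4th ventricles had been excised from 5 rats on a nutrient source-matched control diet (control) and from 5 on a high fat diet (HFD). Each library came from a single rat. The animals were picked by body weight at the end of the feeding, light rats on the control diet and heavy rats on the HFD, so that diet and weight cannot be told apart. Control rats and HFD-fed rats shared strain, sex, age and supplier, and the labels give no treatment beside the diet.

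The choroid plexus epithelium secretes cerebrospinal fluid (CSF) into the ventricles, driven by ion pumps and cotransporters, with water following the salt. Channels in the membrane facing the ventricle let water, potassium and chloride pass and return potassium to the side from which the sodium pump takes it up. AQP1 is the water channel of this membrane, and red blood cells carry it too. KCNE2 is a small regulatory subunit that pairs with voltage-gated potassium channels such as KCNQ1. KCNJ13 (Kir7.1) is an inwardly rectifying potassium channel. CLIC6 belongs to the chloride intracellular channel family, whose members occur in soluble and membrane forms. TRPV4 is a calcium-permeable cation channel that opens on cell swelling and warmth.

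The deposited unit was TPM, a relative transcript abundance corrected for transcript length, so that levels can be compared between genes. No read number can be taken from it. The labels give a nominal sequencing output common to all libraries but no reads per rat, so no counting interval is given. To set the rats on a common scale, TPM were divided by a median-ratio factor, 0.749 in control rat 1 and between 0.945 and 1.13 elsewhere, and the quotient is called rescaled TPM. Control rat 1 stood apart: 1845 of its genes deviated more than 2-fold from the median of the remaining rats, where no other rat exceeded 235. Results are therefore given with and without this rat. The tissue label was checked against 12 epithelial markers, all of which were present, with TTR (transthyretin) alone taking 32.2% to 39.7% of all TPM.

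The promoters of AQP1, KCNJ13 and TRPV4 are shown first, the channel genes whose symbols were found among the RefSeq promoters. Each run holds the 250 bases before the transcript start, 5′ to 3′ on the strand of the gene, as RefSeq gives them for GRCr8, a newer build than the Rnor_6.0 of the measurements. Capitals mark matches on either strand to the letters TATAAA of a TATA box, to the CCAAT box, to GGGCGG as the core of a GC box, or to TAATCC, bound by factors such as OTX2. No matches overlapped. Of the 5 symbols 3 were matched. The AQP1 window lies at chr4:85812534-85812783 on the + strand, KCNJ13 at chr9:95518987-95519236 on the - strand and TRPV4 at chr12:47598938-47599187 on the + strand.
AQP1: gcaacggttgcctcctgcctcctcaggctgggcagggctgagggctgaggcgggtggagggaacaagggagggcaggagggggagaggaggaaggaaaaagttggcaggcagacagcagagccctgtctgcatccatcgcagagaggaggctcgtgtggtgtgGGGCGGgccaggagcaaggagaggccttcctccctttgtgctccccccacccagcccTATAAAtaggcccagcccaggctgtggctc
KCNJ13: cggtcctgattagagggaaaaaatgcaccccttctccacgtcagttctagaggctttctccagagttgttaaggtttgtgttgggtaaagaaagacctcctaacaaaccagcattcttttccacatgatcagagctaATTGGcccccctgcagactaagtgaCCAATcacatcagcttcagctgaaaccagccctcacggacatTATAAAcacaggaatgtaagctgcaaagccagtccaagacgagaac
TRPV4: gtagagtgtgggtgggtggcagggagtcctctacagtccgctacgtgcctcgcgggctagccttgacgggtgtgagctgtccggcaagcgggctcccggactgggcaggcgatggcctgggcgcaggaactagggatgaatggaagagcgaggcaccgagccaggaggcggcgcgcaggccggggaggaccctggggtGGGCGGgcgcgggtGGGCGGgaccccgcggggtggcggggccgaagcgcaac

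TATAAA began 30 bases before the AQP1 start and 46 bases before the KCNJ13 start, and was not among the letters of the TRPV4 window. Of 33469 RefSeq promoters cut to the same length, 12.9% held it. GGGCGG stood 87 bases before AQP1 and at 52 and 38 bases before TRPV4, against 30.5% of all promoters with a match. CCAAT stood at 88 bases before KCNJ13 and in reverse at 113 bases, and 34.0% of all promoters held it. TAATCC matched in none of the 3 windows and in 6.34% of all promoters. The TRPV4 window was the richest in G and C, at 72.8% with 25 CG pairs, against 65.2% and 5 pairs for AQP1, 46.8% and 4 pairs for KCNJ13, and medians of 51.2% and 5 pairs over all promoters. These matches describe letters only, and no measurement of binding was made.

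CLIC6, KCNE2, KCNJ13 and AQP1 were among the most abundant transcripts of the tissue, and TRPV4 was far less abundant. On the rescaled TPM scale CLIC6 ranked 88 of all listed genes by its mean over the rats, KCNE2 125, KCNJ13 126, AQP1 185 and TRPV4 1509. CLIC6 was the highest and TRPV4 the lowest of the 5 in 10 of 10 rats, and AQP1 came after KCNE2 and KCNJ13 in 10 of 10 rats. KCNE2 and KCNJ13 could not be ordered, since KCNE2 was the higher transcript in 5 of 10 rats, and their means, 800.2 ± 65.7 and 725 ± 135 (SD, n = 5) in control rats, lay within their spread. Outside control rat 1, the level of CLIC6 varied 1.18-fold from the lowest to the highest rat, KCNJ13 1.28-fold, KCNE2 1.37-fold, AQP1 1.38-fold and TRPV4 1.63-fold.

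**Figure D1:**
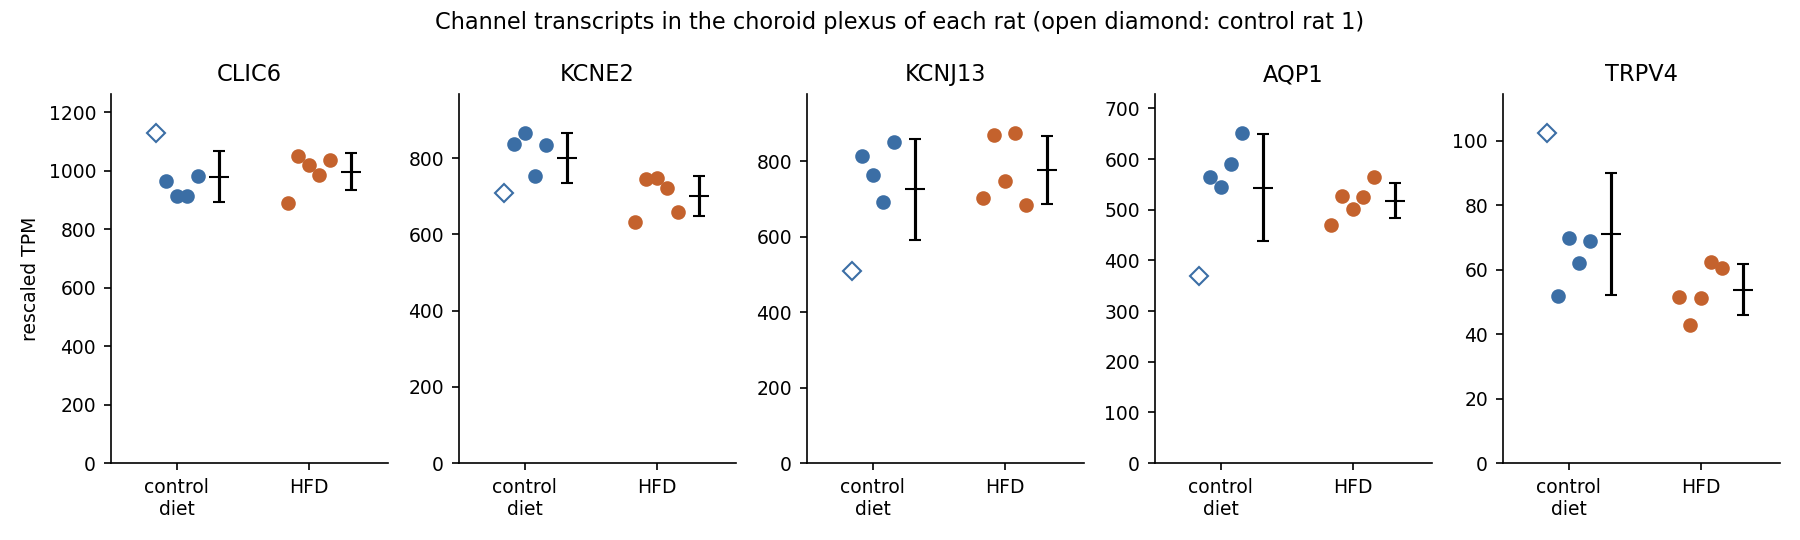
Rescaled TPM (linear axis from 0) of each channel gene in each rat on the control diet (blue) and the HFD (orange), with the mean and SD of each diet in black; the open diamond is control rat 1. In the KCNE2 panel every HFD-fed rat lies below control rats 2 to 5, and control rat 1, at 709.9, lies among the HFD-fed rats.

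To learn whether diet changed these channels, control and HFD-fed rats were compared by limma across the 12198 genes whose rescaled TPM averaged at least 1. None of the 5 channel genes had a Benjamini-Hochberg adjusted p under 0.05, and neither had any other gene (0% of all genes tested). The paper, which fitted raw counts with DESeq2, did report genes that differed between the diets at that limit. Before adjustment, 1051 genes had p under 0.05. KCNE2 and TRPV4 were among them, both with a lower mean in HFD-fed rats, which makes 2 of 5 channel genes where 4.84% of all genes were lower and 3.78% higher at that limit. With control rat 1 left out, KCNE2 and AQP1 had an unadjusted p under 0.05 and a lower mean (6.25% of all genes lower, 5.53% higher), and TRPV4 did not. With TPM as deposited in all 10 rats, 0 of the 5 genes had an unadjusted p under 0.05, against 5.11% of all genes. Over all genes the median log2 fold change was 0.014 with rescaled TPM, 0.0020 without control rat 1 and 0.12 for deposited TPM. In the plain comparison of values, every channel gene overlapped between the diets over 10 rats, where 3.4% of all genes did not.

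KCNE2 (ENSRNOG00000029811), the potassium channel subunit, had the smallest unadjusted p of the 5 genes, with and without control rat 1, and its mean was lower in HFD-fed rats. Its rescaled TPM was 709.9, 838, 866, 753 and 834 in control rats 1 to 5. In HFD-fed rats 1 to 5 it was 633, 745, 749, 721 and 660. Every HFD-fed rat lay below control rats 2 to 5, with control rat 4 and HFD rat 3 nearly touching, and control rat 1 lay within the HFD range. The mean was 701 ± 52.2 on the HFD and 800.2 ± 65.7 on the control diet (SD, n = 5 each), with log2 fold change -0.19 (SE 0.079, limma, adjusted p = 0.569, unadjusted p = 0.0354). On the linear scale this was a mean 12.3% lower, with the 95% interval of the change from -22.2% to -1.08%. The exact two-sided permutation test gave p = 0.0556, where the smallest p that 5 rats against 5 allow is 0.00794. Without control rat 1 the log2 fold change was -0.23 (SE 0.067, limma, adjusted p = 0.285, unadjusted p = 0.00603), and the exact permutation test gave its smallest possible p, 0.0159. KCNE2 was then 1 of 5 channel genes with every HFD-fed rat below every control rat, a pattern of 2.73% of all genes. With TPM as deposited the log2 fold change was -0.087 over 10 rats (limma, unadjusted p = 0.518). Without control rat 1 it was -0.22 for deposited TPM (limma, adjusted p = 0.546, unadjusted p = 0.00359), although HFD rat 4 then lay above control rat 4. Leaving out 1 rat in turn kept the unadjusted p under 0.05 in 5 of 10 fits.

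TRPV4 (ENSRNOG00000001195), the swelling-sensitive cation channel, had the largest fold change of the 5 and the widest spread. Rescaled TPM was 102, 52.0, 70.0, 62.2 and 68.8 in control rats 1 to 5. It was 51.7, 43.0, 51.3, 62.4 and 60.6 in HFD-fed rats 1 to 5. Control rat 1 was far above every other rat, and the diets overlapped. Control rats 2 and 4 lay within the HFD range, control rat 4 just below its top. The means were 53.8 ± 7.88 on the HFD and 71.1 ± 18.9 on the control diet (SD, n = 5 each), with log2 fold change -0.38 (SE 0.17, limma, adjusted p = 0.571, unadjusted p = 0.0465). The exact permutation test gave p = 0.0556. Without control rat 1 the control mean was 63.3 ± 8.25 (SD, n = 4) and the log2 fold change -0.24, with a 95% interval from -0.50 to 0.031 (limma, unadjusted p = 0.0777). The size of the TRPV4 difference thus depended on control rat 1, and it moved with other rats too. The log2 fold change was -0.48 without control rat 2 and -0.30 without HFD rat 2. Leaving out each rat kept the unadjusted p under 0.05 in 4 of 10 cases.

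**Figure D2:**
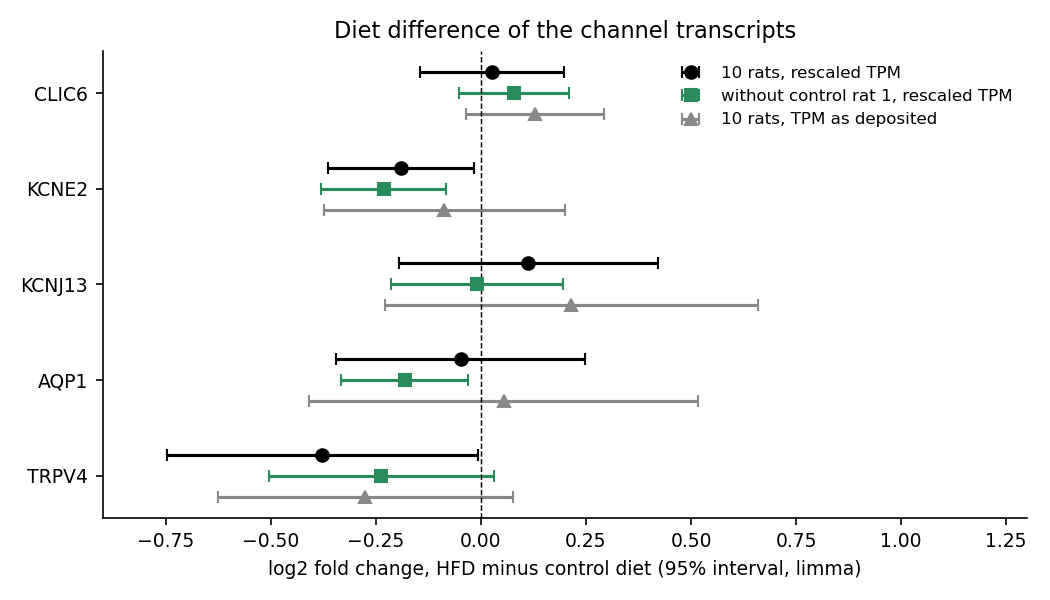
Log2 fold change of each channel gene (HFD minus control diet) with its 95% interval by limma, for all 10 rats with rescaled TPM (black circles), without control rat 1 (green squares) and for TPM as deposited (grey triangles). The intervals of KCNE2 and TRPV4 leave out 0 with all 10 rats, those of KCNE2 and AQP1 without control rat 1, and all 5 include 0 with TPM as deposited.

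AQP1 (ENSRNOG00000011648), the water channel, differed between the diets by less than the spread between rats over all 10 rats, and had a lower mean in HFD-fed rats without control rat 1. Its rescaled TPM was 369, 564, 545, 590.0 and 651 in control rats 1 to 5. In HFD-fed rats 1 to 5 it was 471, 527, 502, 525 and 564. Control rat 1 was the lowest of all rats, whereas HFD-fed rats 1 to 4 lay below control rats 2 to 5 and HFD rat 5 among them. The means were 518 ± 34.5 on the HFD and 544 ± 105 on the control diet (SD, n = 5 each), with log2 fold change -0.048 (SE 0.13, limma, adjusted p = 0.881). The 95% interval of the change ran from -21.3% to 18.8%, and the exact permutation test gave p = 0.786. Without control rat 1 the control mean was 587 ± 46.4 (SD, n = 4), and the log2 fold change was -0.18 (SE 0.068, limma, adjusted p = 0.354, unadjusted p = 0.0224, exact permutation p = 0.0476). With TPM as deposited over 10 rats the sign turned, to 0.054. Without control rat 1 the log2 fold change was -0.17 for deposited TPM (limma, adjusted p = 0.759, unadjusted p = 0.0779). The summed level of 4 hemoglobin genes, a measure of blood in the tissue, was 7777 in control rat 1, 3657 to 6913 in the other control rats and 3103 to 6387 in HFD-fed rats, and its part in the AQP1 values was not tested.

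KCNJ13 (ENSRNOG00000016057), the Kir7.1 potassium channel, and CLIC6 (ENSRNOG00000026870), the chloride intracellular channel protein, did not differ beyond the spread between rats. KCNJ13 had a rescaled TPM of 508, 813, 763, 692 and 850 in control rats 1 to 5 and of 703, 870, 748, 874 and 685 in HFD-fed rats 1 to 5. Apart from control rat 1, the lowest of all, the values of both diets were interleaved. The means were 776 ± 90.6 on the HFD and 725 ± 135 on the control diet (SD, n = 5 each), with log2 fold change 0.11 (SE 0.14, limma, adjusted p = 0.722, exact permutation p = 0.54). Without control rat 1 it was -0.0097, with a 95% interval from -13.8% to 14.5%.

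CLIC6 had a rescaled TPM of 1128, 963, 913, 913 and 981 in control rats 1 to 5. It had 890.5, 1050, 1020, 984 and 1037 in HFD-fed rats 1 to 5. Control rat 1 was the highest rat and HFD rat 1 the lowest, with the others close together. The means were 996 ± 64.0 on the HFD and 979.6 ± 88.3 on the control diet (SD, n = 5 each), with log2 fold change 0.026 (SE 0.078, limma, adjusted p = 0.889, exact permutation p = 0.714). The 95% interval of the change ran from -9.59% to 14.7%. Without control rat 1 the log2 fold change was 0.078 (SE 0.059, limma, adjusted p = 0.631), with an interval from -3.59% to 15.5%.

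KCNJ13 lies inside the span of GIGYF2, a gene of the opposite strand, in RefSeq, and whether reads were assigned by strand is not given in the sources used here. GIGYF2, which encodes a translational repressor, had 94.8 ± 7.06 on the HFD and 93.7 ± 8.30 on the control diet (SD, n = 5 each), far below KCNJ13, and a log2 fold change of 0.018. In control rat 1 GIGYF2 was at 81.6 against 91.5 to 103 in the other control rats. KCNE2 and CLIC6 lie on the same chromosome with 5 protein-coding genes between them, SMIM11, C11H21ORF140, SMIM34, KCNE1 and RCAN1, none of which could be tied to an identifier here. Of the 3 nearest protein-coding genes on each side of each channel gene, MRPS6 beside KCNE2 was the other neighbour with values. This gene of the mitochondrial ribosome had 328 ± 17.8 on the HFD and 355 ± 27.7 on the control diet (SD, n = 5 each) and a log2 fold change of -0.11 (limma, adjusted p = 0.585), and -0.16 without control rat 1.

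Ratios between channel transcripts of the same rat do not depend on how the libraries are scaled. CLIC6 over KCNE2 was 1.15, 1.06, 1.21 and 1.18 in control rats 2 to 5 and 1.41, 1.41, 1.36, 1.37 and 1.57 in HFD-fed rats 1 to 5. All HFD-fed rats lay above these 4 control rats, but control rat 1, at 1.59, was above them all. CLIC6 over AQP1 was 1.71, 1.68, 1.55 and 1.51 in control rats 2 to 5 and 1.89, 1.99, 2.03, 1.87 and 1.84 in HFD-fed rats 1 to 5. The diets were again apart, and control rat 1 was at 3.05. Of the 10 ratios that 5 genes give, 0 were without overlap between the diets over all rats and 2, those just given, without control rat 1. Over the ratios of all pairs of genes tested, taken the same way, 2.74% were without overlap over all rats and 4.21% without control rat 1. The 10 ratios share their genes, and both without overlap hold CLIC6. The mean log2 ratio of CLIC6 over KCNE2 was higher by 0.22 in HFD-fed rats over all rats and by 0.31 without control rat 1, and that of CLIC6 over AQP1 by 0.075 and 0.26. No p is attached to these ratios, which were compared as a description.

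The ratio of both potassium channel genes overlapped between the diets. KCNE2 over KCNJ13 was 1.40, 1.03, 1.14, 1.09 and 0.982 in control rats 1 to 5, and 0.901, 0.857, 1.00, 0.824 and 0.963 in HFD-fed rats 1 to 5. KCNE2 exceeded KCNJ13 in 4 of 5 control rats and in 1 of 5 HFD-fed rats, and the overlap came from control rat 5 and HFD rat 3, the latter with nearly equal levels. AQP1 over TRPV4 was 8.41 to 12.3 in HFD-fed rats and 7.78 to 10.8 in control rats 2 to 5, and it was 3.61 in control rat 1.

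**Figure D3:**
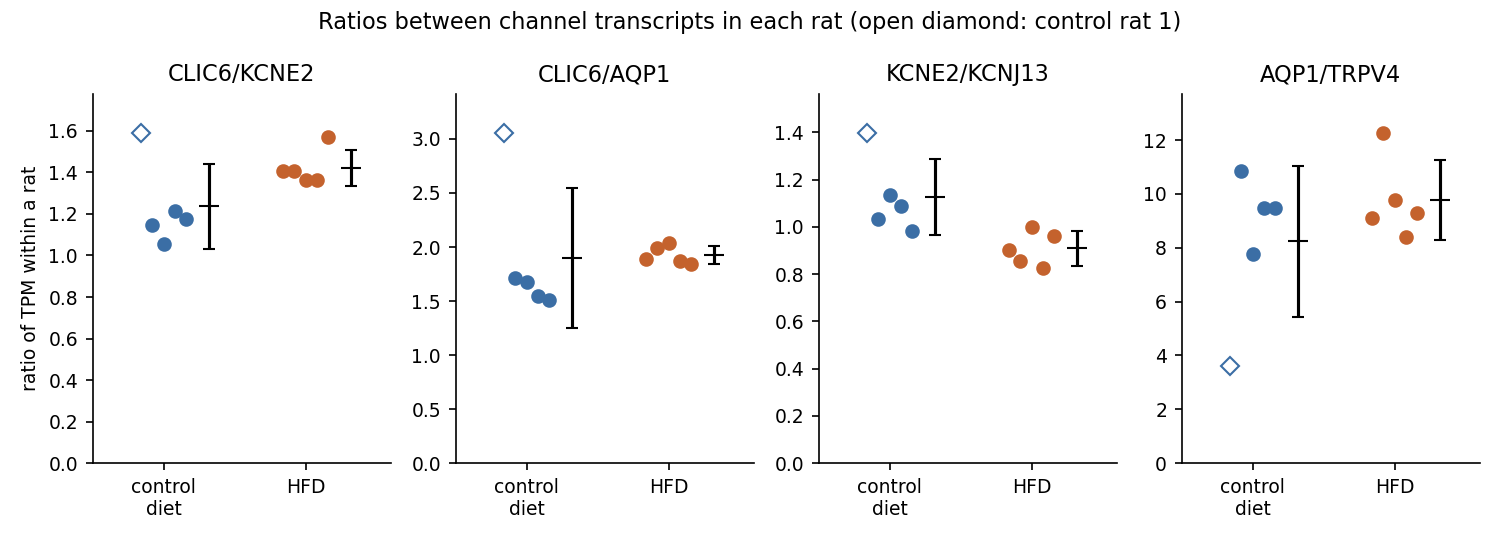
Ratio of TPM within each rat (linear axis from 0) for CLIC6/KCNE2, CLIC6/AQP1, KCNE2/KCNJ13 and AQP1/TRPV4. The other pairs of channel genes are not drawn. Control diet is in blue and HFD in orange, with the mean and SD in black and control rat 1 as an open diamond. CLIC6/KCNE2 and CLIC6/AQP1 are higher in every HFD-fed rat than in control rats 2 to 5, and control rat 1 is above them all.

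In control rat 1, a library that deviated in many genes, the channel genes lay on both sides of the other control rats. On the rescaled scale KCNJ13 stood at 0.645 and AQP1 at 0.640 of the median of the other control rats, KCNE2 at 0.849, CLIC6 at 1.20 and TRPV4 at 1.56. KCNJ13 and AQP1 lay below the range of the other 9 rats and CLIC6 and TRPV4 above it, that is 4 of 5 genes. Of all genes tested 66% lay outside it, so the count is not particular to the channel genes. With TPM as deposited CLIC6 changed sides, and 4 of the 5 genes, all but TRPV4, lay below the range of the other rats, as did 59.7% of all genes. The marker counts that follow are for rescaled TPM in this rat, where 66% of all genes tested lay out of range in either direction. Among 11 epithelial markers without TTR, 9 were below and 1 above the other rats. Their summed rescaled TPM was 6095 against 7812 to 8745 in the other control rats and 8242 to 8961 in HFD-fed rats. TTR, the remaining epithelial marker, went the other way, with a rescaled TPM of 530361 in control rat 1 against 287895 to 404602 in the other 9 rats. With TPM as deposited TTR was also above them, at 397356 against 322165 to 382290. The mural marker RGS5 was below all other rats and the endothelial marker PLVAP above them. Of the 3 stromal markers 1 was above and 1 below, of the 3 macrophage markers 2 were below, and of the 4 blood genes 2 were above, while the ependymal marker DYNLRB2 was within the range. Neuronal and glial markers could not be tied to an identifier. The part of cell type markers in the channel values was not tested, and in bulk tissue fewer cells of a type and less RNA per cell cannot be told apart.

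**Figure D4:**
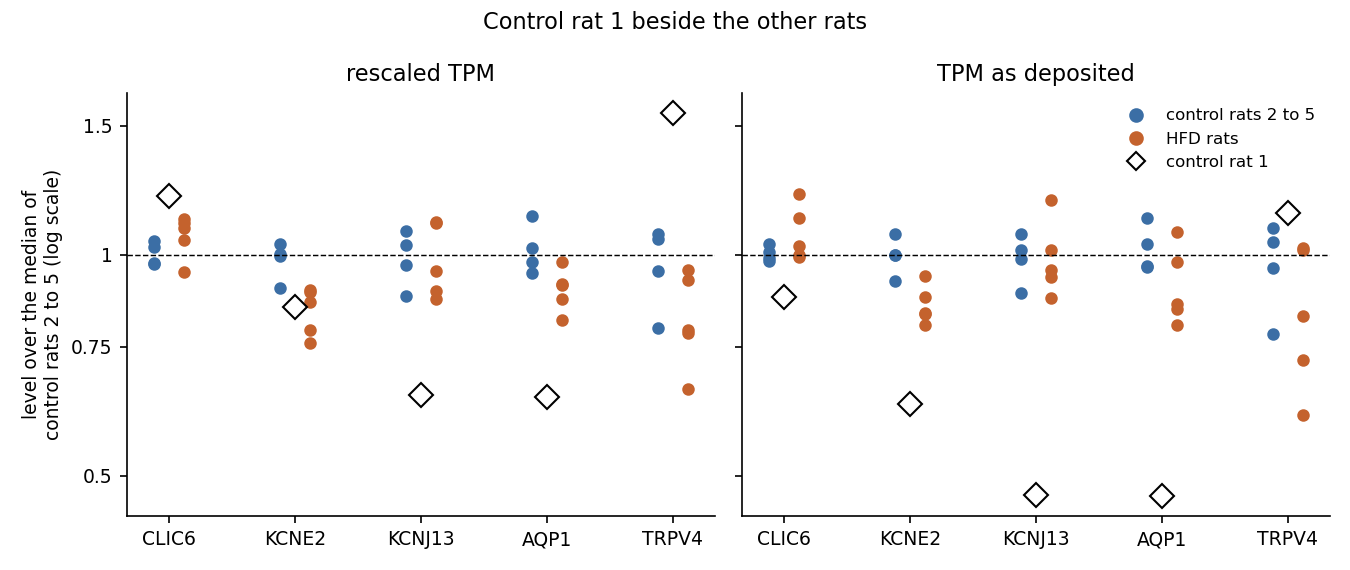
Level of each channel gene over the median of control rats 2 to 5 (log scale) with rescaled TPM (left) and TPM as deposited (right); blue points are control rats 2 to 5, orange points HFD-fed rats, and the open diamond control rat 1. KCNJ13 and AQP1 are low and TRPV4 is high in control rat 1 in both panels, while CLIC6 is high on the left and low on the right.

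Between the diets, none of the marker lists gave a gene with an adjusted p under 0.05. The epithelial list had 3 of 12 genes higher in HFD-fed rats with an unadjusted p under 0.05 (3.78% of all genes), the coreceptor KL, the serotonin receptor HTR2C and the coagulation factor F5, and 0 lower. Without control rat 1 the number higher was 2 (5.53% of all genes). Its median log2 fold change was 0.12, and 0.060 without control rat 1. The stromal, endothelial, mural, macrophage, ependymal and blood lists had 0 such genes, with 3, 1, 1, 3, 1 and 4 genes tested.

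Genes with a pattern across rats like that of a channel gene were ranked by Pearson's r over the 9 rats without control rat 1, centred within each diet, among 2000 named genes, as a description with no p. Being the highest of 2000 over only 9 rats, these r may be high for unrelated genes too, and what chance gives was not tested. KCNE2 was most like TM9SF3 (r = 0.97), CANX (0.95) and YWHAB (0.90). AQP1 was most like SUPT5H (0.89), C1QTNF5 (0.87) and LRRC58 (0.84), and KCNJ13 most like FKBP3 (0.96), CCDC47 (0.89) and CCT8 (0.86). CLIC6 was most like SLC2A12 (0.91), SLC66A2 (0.88) and TGOLN2 (0.87), and TRPV4 most like SERPINH1 (0.94), RILPL2 (0.93) and CAPRIN1 (0.92). None of the 5 channel genes was among the 3 nearest of another. With control rat 1 included, r turned negative for YWHAB, SLC2A12, SUPT5H, C1QTNF5 and CAPRIN1, at -0.37, -0.33, -0.37, -0.84 and -0.53, and fell to 0.18 for SLC66A2 and 0.37 for SERPINH1. With TPM as deposited over 9 rats, r was 0.55 for CCDC47.

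Other channels of the tissue, and genes that regulate channels such as STIM2, were read from a list of 85 symbols. Of these, 8 could be tied to an identifier and all 8 were tested. None had an adjusted p under 0.05. Over 10 rats 1 of the 8, VDAC1, was lower in HFD-fed rats with an unadjusted p under 0.05, as were 4.84% of all genes. Without control rat 1 both VDAC1 and KCNK1 were lower at that limit, as were 6.25% of all genes. VDAC1, the pore of the outer mitochondrial membrane, had 128 ± 5.31 on the HFD against 148 ± 18.7 on the control diet (SD, n = 5 each) and a log2 fold change of -0.20 (limma, adjusted p = 0.569). KCNK1, a background potassium channel, had 109 ± 6.15 on the HFD against 114 ± 20.9 on the control diet (SD, n = 5 each), with a log2 fold change of -0.044 over 10 rats and of -0.17 without control rat 1. As with AQP1 and KCNJ13, control rat 1 was the lowest rat for KCNK1, at 80.0. TRPM3, a cation channel of the TRP family like TRPV4, had 103 ± 11.0 on the HFD and 85.3 ± 25.9 on the control diet (SD, n = 5 each), with 39.7 in control rat 1 (exact permutation p = 0.191). Its log2 fold change was 0.34 over 10 rats and 0.088 without control rat 1. VDAC2 and VDAC3, mitochondrial pores as well, had log2 fold changes of -0.12 and -0.070, and of -0.088 and -0.12 without control rat 1. The median of the list was -0.044, and 0.058 with TPM as deposited.

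Of the pumps, cotransporters, enzymes and kinases that act beside these channels in CSF secretion, 19 of 26 listed symbols could be tied to an identifier and tested. The number with an adjusted p under 0.05 was 0. With an unadjusted p under 0.05 there were 2 over 10 rats, FXYD1 and SLC9A3R1, both lower in HFD-fed rats. Of all genes 4.84% were lower and 3.78% higher at that limit. Without control rat 1 there were 3, when ATP1B2 was added with a higher mean, against 6.25% of all genes lower and 5.53% higher. FXYD1, a regulator of the sodium pump, had a log2 fold change of -0.65 over 10 rats and of -0.37 without control rat 1 (limma, adjusted p = 0.25). SLC9A3R1 encodes the scaffold NHERF1 and had 58.1 ± 3.77 on the HFD against 66.5 ± 5.88 on the control diet (SD, n = 5 each), with -0.19 and -0.14. ATP1B2, a beta subunit of the sodium pump, had 0.077 and 0.21, and its level in control rat 1, 172, was far above the 101 to 111 of the other control rats. The most abundant partners beside FXYD1, the carbonic anhydrases CAR2 and CA12, the pump subunit ATP1B1 and the bicarbonate cotransporter SLC4A5, had values without control rat 1 of 0.086, -0.011, -0.062 and 0.033 on the log2 fold change scale. The median of the 19 genes was 0.077 over 10 rats, 0.0067 without control rat 1 and 0.18 for deposited TPM.

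**Figure D5:**
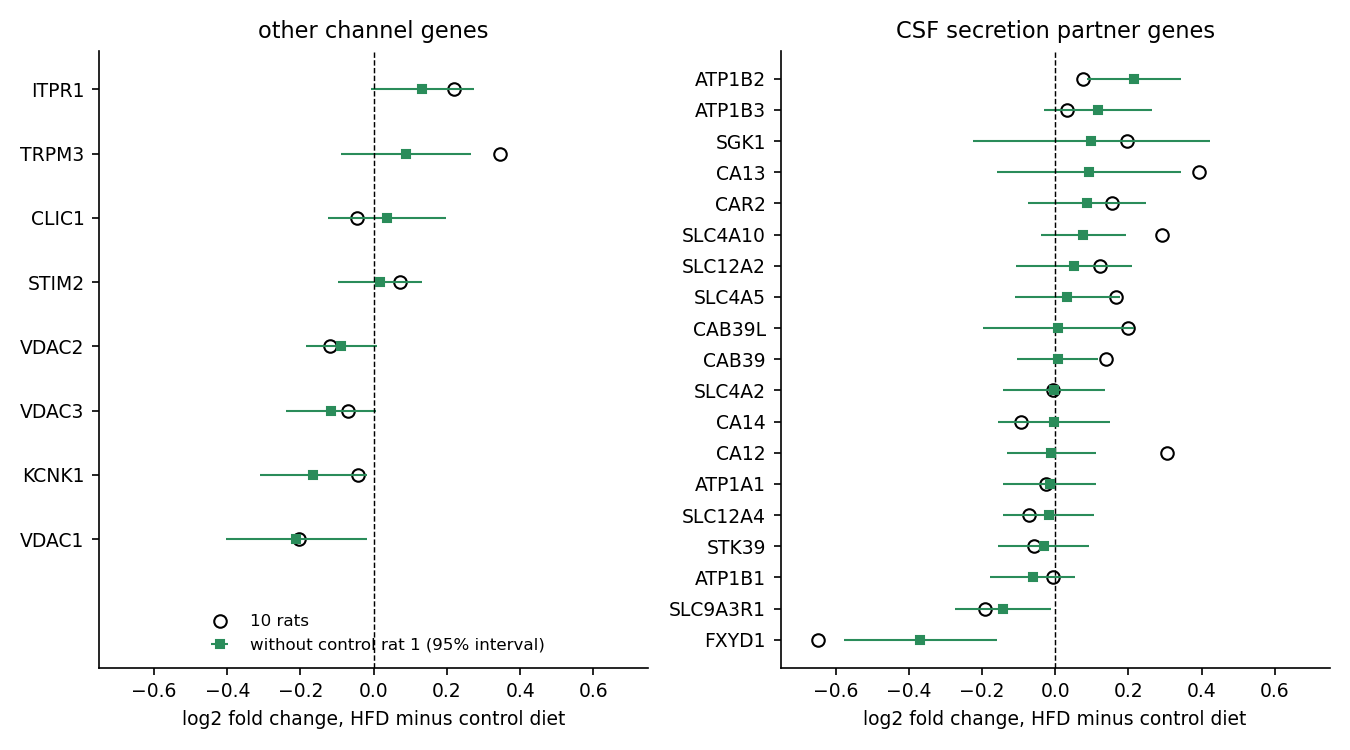
Log2 fold change (HFD minus control diet) of 8 genes from the list of other channels and channel regulators (left) and 19 CSF secretion partner genes (right). Open circles are all 10 rats, and green squares with the 95% interval are without control rat 1. KCNK1 and VDAC1 on the left, and FXYD1, SLC9A3R1 and ATP1B2 on the right, have intervals without 0.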

How the data were processed

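RNA of the choroid plexus was sequenced from 5 control and 5 HFD-fed rats. Per the labels and methods, the authors used STAR for alignment to Rnor_6.0 and RSEM 1.3.3 for gene levels, and deposited TPM and FPKM rounded to 2 decimals. The deposited FPKM were a constant multiple of the TPM within a rat and gave its mean effective transcript length, 789 for control rat 1 against 874 to 968. The labels name STAR 2.7.2a. Raw counts were not used here, so that limma 3.58.1 (R 4.3.3) on log2(rescaled TPM + 0.1) took the place of a count model and fold changes are on that scale. Scaling factors came from 12037 genes, a choice made with the values known. Genes averaging at least 1 were tested, with a mean-variance trend, diet as the only term and Benjamini-Hochberg adjustment over all genes. The procedure was tested on simulated data with independent normal noise in each gene and no deviant rat, so that test does not cover a library like control rat 1. Single genes were compared by exact two-sided permutation over 252 assignments, or 126 without control rat 1, with the scaling recomputed. Python 3.11.15 and scipy 1.17.1 were used.

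Symbols came from the study's gene tables, held here in part (2015 identifiers, the most abundant genes), and 7 symbols with several identifiers were left out. Channel genes, lists and tests were chosen with earlier results of these data known. Named genes were the 5 channel genes, list genes with an unadjusted p under 0.05, the 5 most abundant of each list, neighbours with values, and the 3 most alike genes. No chromosome positions of the values' own build were used. Alternatives changed the scaling, pseudocount, filter, variance model, weights, block, covariate and rats.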

Additional observations from a re-analysis of the deposited data

Results flagged for a closer look

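Within each diet, the highest and the lowest rat were examined by Dixon's ratio, the distance to the next rat over the full range, with a limit of 0.71. The 44 groups of values came from the 5 channel genes, their 10 ratios, the neighbours with values, and some list genes, each in both diets. These list genes had an unadjusted p under 0.05 (limma) with or without control rat 1. Of the 44 groups 5 passed, 4 of them because of control rat 1. The ratios share their genes, and ATP1B2 came in only through the fit without control rat 1. The chance of about 1 in 20 for a single group therefore does not carry over to this count. It was high for CLIC6/KCNJ13, at 2.22 where control rats 2 to 5 had 1.15 to 1.32 (ratio 0.846), and for CLIC6/AQP1, at 3.05 against 1.51 to 1.71 (ratio 0.869). It was also high for ATP1B2, with a rescaled TPM of 172 against 101 to 111 (ratio 0.862), and for FXYD1, with 2715 against 936 to 1120 (ratio 0.896). HFD rat 5 was high for CLIC6/KCNE2, at 1.57 against 1.36 to 1.41 in the other HFD-fed rats (ratio 0.782). None of the 5 channel genes passed this limit by its own rescaled TPM in either diet. No cause was tested.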

How the results depend on the processing

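In 23 alternatives none of the 5 channel genes reached an adjusted p under 0.05, and the smallest was 0.19, for KCNE2 with array weights. KCNE2 and TRPV4 had a lower mean in HFD-fed rats in all 23 and CLIC6 a higher one in all 23, and an unadjusted p under 0.05 was found in 17 of them for KCNE2 and in 12 for TRPV4. AQP1 turned to 0.054 with TPM as deposited, and ran from -0.18 to 0.023 when 1 rat was left out, above 0 without control rat 5. KCNJ13 ran from -0.0097 to 0.18 when 1 rat was left out, below 0 without control rat 1, and reached 0.22 with TPM as deposited. The number of channel genes with an unadjusted p under 0.05, 2, was 3 with array weights, where AQP1 joined at -0.19 (limma, adjusted p = 0.223), 0 with TPM as deposited, 1 with no mean-variance trend, with the mean effective length covariate, for deposited TPM fitted with array weights, for deposited TPM without control rat 1, and 0 to 2 when 1 rat was left out (0 without control rat 3 or 5 or HFD rat 1). Of all genes, 0 had an adjusted p under 0.05, while the count was 1 when low genes were kept, 3 for array weights, 2 for the covariate and 1 for deposited TPM fitted with array weights. Before adjustment 1051 genes had p under 0.05, and this count became 624 for deposited TPM, 622 when the mean had to reach 10 (fewer genes tested), 1877 for array weights and 1620 for deposited TPM fitted with array weights. The causes were not tested. Alternatives that join TPM as deposited with another choice were added after seeing the data. The list counts moved between 0 and 3. Reads per rat were not given, so the counting error of each value is unknown.

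Both diets have replicate numbers 1 to 5, but same-numbered rats deviated together with correlations of only -0.038 to 0.12, so the numbers were not taken as pairs. With the replicate block, KCNE2 had an unadjusted p of 0.0256 and TRPV4 of 0.033, the number of channel genes with an unadjusted p under 0.05 stayed at 2, and that of the CSF secretion partner genes went from 2 to 0.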
